A study of Salmo salar with 16 samples.

Results

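The spleens of 12 Atlantic salmon (Salmo salar) fed soybean meal were compared with those of 4 fed fishmeal, in order to find the transcripts that differed in the same way under every soybean diet. These 16 fish are all the samples of the series, with 4 fish for each of the 4 diets, and they were assigned by the diet in the sample labels. FM was the fishmeal control diet with no soybean meal. SBM held soybean meal at 40%, ICJ held the same 40% with heat-inactivated Cyberlindnera jadinii yeast at 5%, and ACJ held 40% soybean meal with autolyzed yeast of the same species at 5%. In the diet formulation, the soybean diets also had less fishmeal, wheat gluten and starch than FM, no cellulose, and added lysine, methionine and phosphate, so soybean meal and these other ingredients cannot be told apart. All fish were kept in fresh water and were sampled after 37 days of feeding from duplicated tanks. Which tank held which fish is not analysed here, and a difference between tanks cannot be told apart from one between diets, so the p-values measure the spread between fish only. SBM, ICJ and ACJ fish are called soybean fish, and each of these diets had the same weight in the comparison.

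The fish spleen filters blood and is a site where antigen is trapped and shown to lymphocytes. Its red pulp holds large numbers of erythrocytes and thrombocytes, which have nuclei and transcripts in fish, and its ellipsoids and sinusoids are lined by macrophages and endothelial cells that take up particles and waste from the blood. Soybean meal is used as a dietary challenge in salmon because its antinutritional factors can inflame the distal intestine, and the study asked whether the spleen responds as well. In RNA from a whole organ, fewer cells of a type and less RNA per cell cannot be told apart.

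Across the 28930 genes tested, 287 (0.992%) passed an adjusted p of 0.05 in edgeR's quasi-likelihood test between the soybean diets and FM, with Benjamini-Hochberg adjustment over all genes. Of these, 170 were higher and 117 lower in soybean fish. The higher genes included a creatine kinase, an endocytic mannose receptor and other uptake receptors, lysosomal proteases and genes of vascular endothelium. Among the lower genes were amino acid transporters, enzymes of methionine and one-carbon metabolism and several leukocyte signalling genes. Leukocyte signalling genes were called in both directions, with a common cytokine receptor subunit and the chemokine gene cxcl12 among the higher ones. Changes were small: the median log2 fold change was 0.42 among the higher genes and -0.53 among the lower ones, and 19 of the 287 changed by at least 1 on the log2 scale. At an unadjusted p under 0.05 there were 4770 genes (16.5%), 2294 higher (7.93%) and 2476 lower (8.56%). The median log2 fold change of all 28930 genes was -0.01. The count of 287 ran from 8 to 1005 when 1 fish was left out and was 5 with the hemoglobin level as a covariate, and DESeq2 called 869 genes and edgeR's likelihood ratio test 698. Of the 287 genes, 5 kept their call in all 16 fits that left out 1 fish.

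Levels are given as CPM, counts scaled to a common library size by edgeR's TMM method, and they are not divided by gene length, so they are compared between fish and not between genes. Total counts per fish lay between 5032593 and 9100203, and a floor of 3 counts corresponded to between 0.315 and 0.634 CPM, which covers counting error only. The common biological coefficient of variation between fish of one diet was 0.199. SE stands for the standard error, and a positive fold change means a higher level in soybean fish throughout.

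Creatine kinase of the testis type had the smallest adjusted p of the comparison, together with 2 other genes. The gene, kcrt, lies on chromosome 9, 26169091 to 26173503 of ICSASG_v2, and creatine kinases move phosphate between ATP and creatine. It had 66.4, 51.7, 43.3 and 57.0 CPM in the 4 FM fish, and from 81.3 to 131 CPM (median 98.7) in the 12 soybean fish. No soybean fish was as low as the highest FM fish. The log2 fold change was 0.93 (SE 0.11, adjusted p = 0.00181), and by diet it was 0.78 in SBM, 0.90 in ICJ and 1.13 in ACJ. ACJ exceeded SBM by 0.34 (95% interval 0.08 to 0.60) on the log2 scale, with an adjusted p of 0.711 for that difference.

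LOC106568231, named gamma-glutamyltransferase 5-like, encodes an enzyme of a family that cleaves gamma-glutamyl bonds, and in mammals the type 5 enzyme acts on leukotrienes. It lies on chromosome 13, 86308155 to 86317493. The FM fish had 40.6, 49.8, 55.4 and 56.5 CPM and the soybean fish from 69.3 to 107 CPM (median 91.2). These ranges were separate, and the log2 fold change was 0.82 (SE 0.10, adjusted p = 0.00181).

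The cytokine receptor common subunit gamma-like gene LOC106563704 (chromosome 11, 80842411 to 80850500) codes for a chain shared by the receptors of several interleukins that lymphocytes depend on. Its level was 41.8, 33.8, 33.8 and 35.1 CPM in FM and from 48.8 to 58.3 CPM (median 52.8) in soybean fish. The log2 fold change was 0.56 (SE 0.07, adjusted p = 0.00181), and FM replicate 1 stood above the other FM fish without reaching the lowest soybean fish.

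Anoctamin-1-like LOC106573096 (chromosome 16, 5671010 to 5741578) is related to a chloride channel that opens with calcium. FM fish had 32.7, 40.6, 38.4 and 38.5 CPM and soybean fish from 49.7 to 73.0 CPM (median 57.9), again without overlap, for a log2 fold change of 0.68 (SE 0.09, adjusted p = 0.00296). Ependymin-like LOC106608597 (chromosome 7, 10140149 to 10146471) belongs to a family of secreted glycoproteins first described in fish brain. Its levels were 226, 255, 190.3 and 213 CPM in FM and from 292 to 417 CPM (median 324) in the soybean fish, with a log2 fold change of 0.61 (SE 0.08, adjusted p = 0.00331). By diet this gene had fold changes of 0.74 in SBM, 0.64 in ICJ and 0.45 in ACJ.

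These 5 genes, singled out after their values were seen, were the ones that passed the threshold in each of the 16 fits that left out 1 fish. They were also the 5 genes that passed when the summed level of the hemoglobin genes entered the model as a covariate, with log2 fold changes of 0.80 for kcrt, 0.81 for LOC106568231, 0.70 for LOC106573096, 0.62 for LOC106608597 and 0.54 for LOC106563704 in that fit. The mannose receptor gene mrc1, described below with the uptake receptors, passed in 15 of the 16 fits that left out 1 fish.

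**Figure D1:**
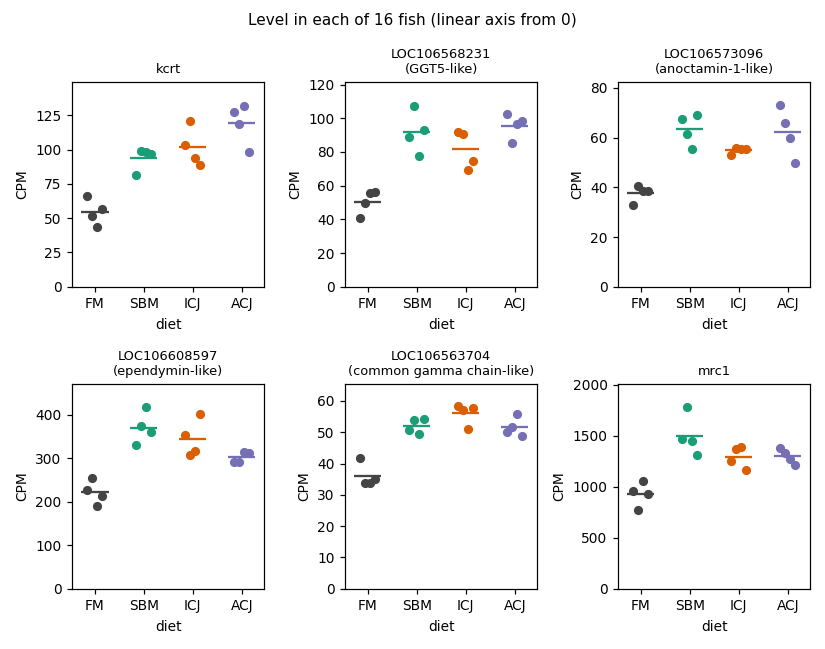
Level in CPM (linear axis from 0) of the 5 genes called in every fit that left out 1 fish, and of mrc1, in each of the 16 fish by diet. Each point is 1 fish and each line the mean of 4 fish. For kcrt the FM fish sit between 43.3 and 66.4 CPM and the soybean fish between 81.3 and 131 CPM, and in all 6 panels the FM fish lie below every soybean fish.

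Among all tested genes, 217 (0.750%) had no overlap between the 4 FM and the 12 soybean fish, 137 of them (0.474%) higher and 80 (0.277%) lower in soybean fish. Of the 287 called genes, 118 had no overlap. The 12 highest and 12 lowest fold changes among those that were also common to the diets, as defined further on, and had a mean log2 CPM of at least 1 are described next. The higher group was led by LOC106590361, a gene with no name in the sources used here, at 1.07, 1.43, 1.93 and 1.33 CPM in FM and from 2.12 to 5.48 CPM (median 2.83) in soybean fish, a log2 fold change of 1.12 (SE 0.26, adjusted p = 0.0486). The 2 ranges lay close together, and 2 of the 16 fits that left out 1 fish kept its call. After kcrt came LOC106578605, named insulin-induced gene 1 protein-like. Insulin-induced gene proteins hold the activator of sterol synthesis genes in the endoplasmic reticulum. It had 5.69, 3.998, 4.03 and 3.49 CPM in FM and from 6.22 to 11.8 CPM (median 7.74) in soybean fish, so that all FM fish were below all soybean fish, with a log2 fold change of 0.91 (SE 0.18, adjusted p = 0.0278).

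A second creatine kinase gene, the B-type-like LOC106607642, had 11.03, 13.9, 12.5 and 10.8 CPM in FM and from 15.6 to 29.4 CPM (median 18.7) in soybean fish, a log2 fold change of 0.77 (SE 0.14, adjusted p = 0.0243). LIM domain-binding protein 2, LOC106611552, an adaptor of transcription factors with LIM domains, had 16.01, 13.1, 13.5 and 11.96 CPM against 16.7 to 28.6 CPM (median 23.2) and a log2 fold change of 0.76 (SE 0.14, adjusted p = 0.022). The groups did not overlap for either gene. The deoxyribonuclease gamma-like gene LOC106566468, whose mammalian relative cuts DNA in dying cells, had a log2 fold change of 0.73 (adjusted p = 0.029). For the schwannomin-interacting protein 1-like gene LOC106577884 it was 0.63 (adjusted p = 0.029). LOC106577374, related to BNIP3, which marks mitochondria for degradation, reached 0.62 (adjusted p = 0.0328). The remaining higher genes of this group, LOC106566873 and LOC106603702, had no name and log2 fold changes of 0.89 and 0.62.

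In the lower group the 3 largest changes belonged to genes without a functional name. LOC106604735, LOC106586646 and LOC106601354 had log2 fold changes of -1.25, -1.24 and -1.24. The last of them had 6.94, 11.6, 9.12 and 9.80 CPM in FM and from 2.31 to 5.48 CPM (median 3.84) in soybean fish. Next was the sodium/myo-inositol cotransporter-like gene LOC106575499 (chromosome 17, 17182095 to 17191268), whose product takes up inositol, a sugar alcohol that cells use as an osmolyte and for lipid signalling. It had 10.1, 7.71, 12.1 and 12.8 CPM in FM against 3.54 to 6.65 CPM (median 5.65) in soybean fish, and a log2 fold change of -0.95 (SE 0.14, adjusted p = 0.00825). No FM fish was as low as any soybean fish.

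The gene prr5l, which in mammals encodes a partner of an mTOR complex, had 53.2, 45.1, 64.9 and 44.5 CPM in FM and from 14.2 to 36.3 CPM (median 28.02) in soybean fish, with a log2 fold change of -0.94 (SE 0.19, adjusted p = 0.0345). Gamma-glutamyltranspeptidase 1-like LOC106579933 belongs to the same enzyme family as LOC106568231 and in mammals starts the breakdown of glutathione outside the cell. It had 33.1, 52.0, 50.7 and 54.5 CPM against 13.9 to 31.1 CPM (median 25.3), a log2 fold change of -0.91 (SE 0.16, adjusted p = 0.0226), so the 2 family members changed in opposite directions. FCHSD2-like LOC106613235, an F-BAR protein that bends membranes during endocytosis, had -0.88 (adjusted p = 0.022). HID1-like LOC106611817, from a family that acts in vesicle formation at the Golgi, had -0.86 (adjusted p = 0.0466), and 3 of the 16 fits that left out 1 fish kept its call.

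CD97 antigen-like LOC106592550, on a sequence without a chromosome in the files, is related to an adhesion receptor of leukocytes. The FM fish had 42.0, 54.7, 53.3 and 44.9 CPM and the soybean fish from 22.3 to 39.0 CPM (median 29.0). Without any overlap between the groups, the log2 fold change was -0.71 (SE 0.11, adjusted p = 0.0108). The last 3 lower genes, LOC106607157, LOC106576023 (proline and serine-rich protein 2-like) and LOC106569123, had log2 fold changes of -0.85, -0.72 and -0.67, and LOC106607157 and LOC106569123 are uncharacterized.

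**Figure D2:**
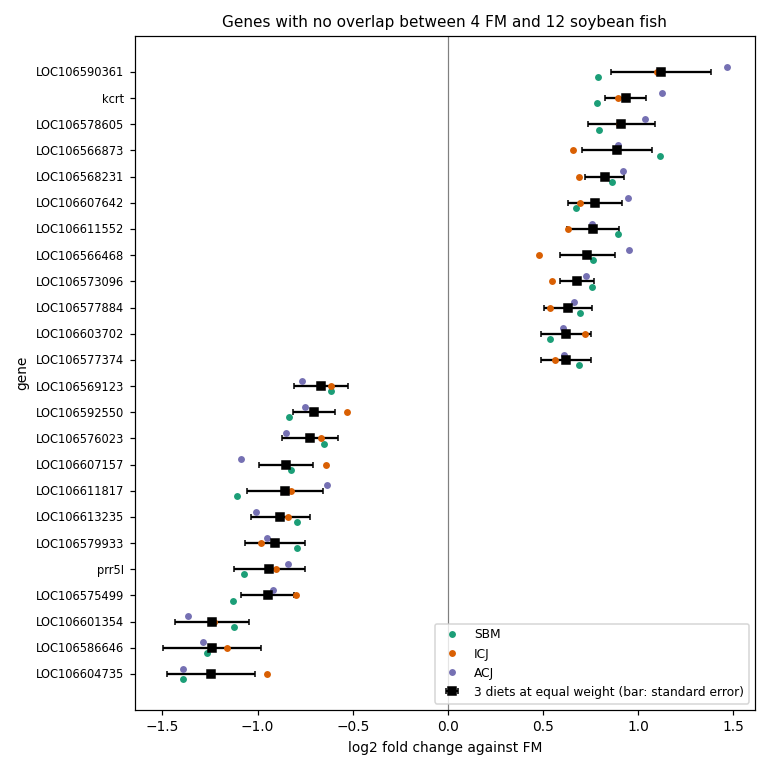
Log2 fold change against FM of the 12 highest and 12 lowest genes with no overlap between FM and soybean fish. Squares are the 3 soybean diets at equal weight, with bars for the standard error, and circles are SBM, ICJ and ACJ alone. The genes were also chosen to be common to the diets, so all 3 circles lie on the same side of 0 by that choice. The 3 diets share the FM fish they are compared with.

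Several genes of amino acid supply were among the lower genes. By symbol, 34 genes of a list on the amino acid response and transport were tested. In this list 3 genes fell and 0 rose, its median log2 fold change was 0.01, and 0.404% of all tested genes fell. Fold changes were above 0 in 18 of the 34 and below 0 in 16. At an unadjusted p under 0.05, 11 were lower and 3 higher, against 8.56% and 7.93% of all tested genes. The neutral amino acid transporter gene slc1a4 (chromosome 18, 35943930 to 35977853), which exchanges alanine, serine and other small amino acids, had 61.7, 51.1, 103 and 109 CPM in FM and from 24.8 to 57.5 CPM (median 33.9) in soybean fish. Among the soybean fish, ICJ replicates 3 and 4 reached above FM replicate 2, and the log2 fold change was -1.12 (SE 0.22, adjusted p = 0.0339). The sestrin gene LOC106588768, named sestrin-1-like in the study's gene list and sesn2 in RefSeq, belongs to a family that senses leucine and restrains mTOR. It had 18.0, 14.3, 33.5 and 23.4 CPM against 11.6 to 18.2 CPM (median 12.6), with a log2 fold change of -0.76 (SE 0.16, adjusted p = 0.0305). The stress-response transcription factor gene atf3_1 fell as well, from 4.48 ± 1.28 CPM (SD, n = 4 fish) in FM, with a log2 fold change of -1.21 (SE 0.29, adjusted p = 0.0497). Its call was lost in 15 of the 16 fits that left out 1 fish. The gene of the list with the most counts, sesn1, had a log2 fold change of 0.14 (adjusted p = 0.434).

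A further 4 genes with such functions have no usable symbol in RefSeq and were chosen after their values were seen. LOC106562888, named neutral amino acid transporter A-like after the same transporter family as slc1a4, had 10.7, 8.28, 20.3 and 15.5 CPM in FM and from 3.003 to 10.03 CPM (median 5.15) in soybean fish, a log2 fold change of -1.37 (SE 0.28, adjusted p = 0.0324). High affinity cationic amino acid transporter 1-like LOC106581541, from a family that imports arginine and lysine, had -0.99 (adjusted p = 0.0417). The S-adenosylmethionine synthase type-2-like gene LOC106580346 (chromosome 20, 26498292 to 26504196), which makes the methyl donor of the cell from methionine, had 93.9, 90.1, 189.8 and 147 CPM in FM and from 44.7 to 98.4 CPM (median 61.4) in soybean fish. Its log2 fold change was -1.06 (SE 0.21, adjusted p = 0.0357), and FM replicates 1 and 2 were within the range of the soybean fish. D-3-phosphoglycerate dehydrogenase-like LOC106586211, for the entry step of serine synthesis, changed the other way, from 17.8, 21.3, 18.2 and 19.3 CPM in FM to 21.5 to 30.3 CPM (median 26.9) in soybean fish, a log2 fold change of 0.45 (SE 0.09, adjusted p = 0.0312) with no overlap. Of the 16 fits that left out 1 fish, 9 kept the call of LOC106562888, 5 that of LOC106581541, 5 that of LOC106580346 and 10 that of LOC106586211. For slc1a4 it was 6 and for LOC106588768 it was 10.

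In the list on serine, one-carbon and methionine metabolism, 20 genes were tested, 1 fell and 0 rose, where 0.404% of all tested genes were called lower. Of the 20, 17 had a negative fold change (median -0.30), against 14834 of all 28930 genes. At an unadjusted p under 0.05, 6 were lower and 1 higher, against 8.56% and 7.93% of all tested genes. The gene that fell was shmt2 (chromosome 12, 82136982 to 82169862), for the mitochondrial enzyme that takes a carbon unit from serine. It had 89.1, 76.7, 109 and 95.7 CPM in FM and from 44.2 to 77.1 CPM (median 58.5) in soybean fish, with only the lowest FM fish reaching into the soybean range. The log2 fold change was -0.61 (SE 0.10, adjusted p = 0.0108), and it was -0.90 in SBM, -0.39 in ICJ and -0.55 in ACJ. ICJ was above SBM by 0.51 (95% interval 0.26 to 0.77), but the joint test of a difference among the soybean diets gave an adjusted p of 0.8286 for this gene. The gene of the list with the most counts, the mthfd2 gene LOC106580352, had a log2 fold change of -0.81 (adjusted p = 0.143). Hemoglobin and other red cell genes were also lower on average in soybean fish, as given below, and most called genes lost their call with the hemoglobin covariate. In that fit the log2 fold change was -0.56 for shmt2, -0.67 for slc1a4 and -0.76 for LOC106580346, all in the same direction as before and short of the threshold, with adjusted p of 0.0929, 0.0929 and 0.234.

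**Figure D3:**
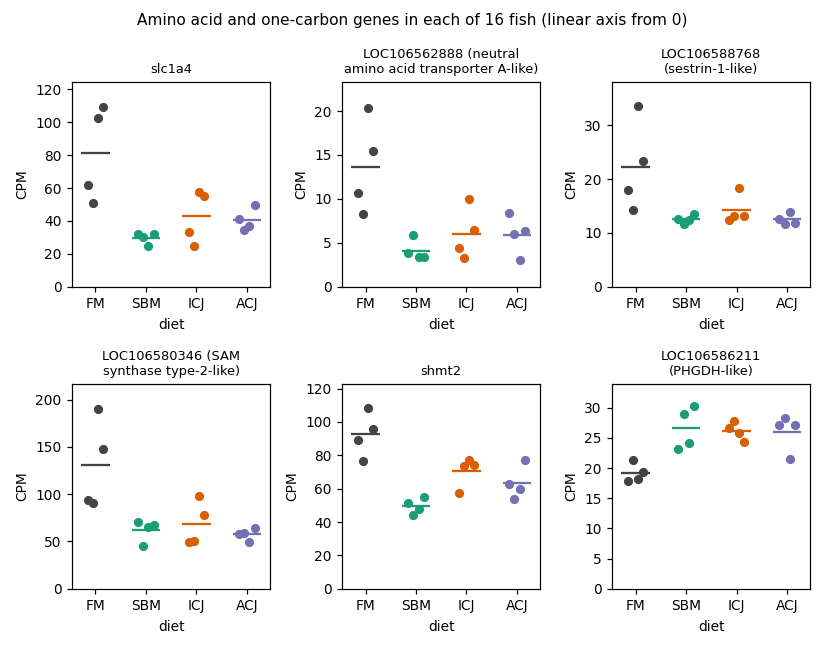
Level in CPM (linear axis from 0) of 6 amino acid and one-carbon genes in each fish by diet. Points are fish and lines are means of 4. The first 5 are lower in soybean fish, with slc1a4 at 51.1 to 109 CPM in FM and 24.8 to 57.5 CPM in soybean fish, and FM replicates 3 and 4 are highest, while the phosphoglycerate dehydrogenase-like gene is higher in all soybean fish.

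Genes of uptake receptors and vascular endothelium were among the higher ones. One of them was mrc1 (chromosome 29, 11837790 to 11855027), the mannose receptor of macrophages and of scavenging endothelium. It had 962, 774, 1059 and 928 CPM in FM and from 1161 to 1779 CPM (median 1350.5) in soybean fish, which did not overlap, and a log2 fold change of 0.55 (SE 0.08, adjusted p = 0.00825). It was the single gene called of 17 tested in the list of macrophage and dendritic cell markers, 0.588% of all genes being called higher. That list had a median log2 fold change of 0.22, with 13 members above 0 and 4 below. At an unadjusted p under 0.05, 7 of the 17 were higher and 1 lower, against 7.93% and 8.56% of all tested genes. The gene of the MHC class II invariant chain, LOC106604844 (cd74a), had the most counts in the list and a log2 fold change of 0.27 (adjusted p = 0.0635).

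Of 12 tested endothelial markers, 2 rose and 0 fell, where 0.588% of all tested genes were called higher. The median log2 fold change was 0.20. At an unadjusted p under 0.05, 6 of the 12 were higher and 0 lower, against 7.93% higher over all tested genes. The 2 called markers were stab2 (chromosome 7, 38459837 to 38495002), the hyaluronan receptor of sinusoidal endothelium, and tek, the receptor of angiopoietins. For stab2 the levels were 122.95, 111, 193 and 151 CPM in FM and from 177 to 291 CPM (median 224) in soybean fish. FM replicate 3 reached into the soybean range, and the log2 fold change was 0.64 (SE 0.12, adjusted p = 0.0262). For tek it was 0.37 (SE 0.09, adjusted p = 0.0473), and 3 of the 16 fits that left out 1 fish kept its call, against 14 for stab2. The marker with the most counts, stabilin-1-like LOC106566251, had 0.40 (adjusted p = 0.0897). The summed level of the endothelial markers ran from 676 to 914 CPM in FM and from 828 to 1181 CPM (median 1001) in the soybean fish, and that of the macrophage and dendritic cell markers from 9909 to 12859 CPM in FM and from 11692 to 14206 CPM (median 12893) in the soybean fish. Both sums overlapped between the groups, and their part in the genes of the next paragraphs was not tested.

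Other genes with related functions were chosen after their values were seen, since their symbols were not in the lists. Among genes named after LYVE1, the hyaluronan receptor of lymphatic and sinusoidal endothelium, xlkd1 had 89.7, 70.1, 65.1 and 59.1 CPM in FM and from 88.7 to 138 CPM (median 107) in soybean fish, a log2 fold change of 0.59 (SE 0.10, adjusted p = 0.016). Only FM replicate 1 reached the lowest soybean fish. LOC106561566, with the same name, had 0.49 (adjusted p = 0.0312). Collectin-12-like LOC106590136, a scavenger receptor, had 0.67 (adjusted p = 0.0324). Clathrin heavy chain 1-like LOC106567969, the coat protein of endocytic vesicles, had 371, 351, 358 and 345.25 CPM in FM and from 414 to 463 CPM (median 446) in soybean fish, and a log2 fold change of 0.31 (SE 0.05, adjusted p = 0.0108). Its fold changes were 0.32 in SBM, 0.30 in ICJ and 0.31 in ACJ. Both copies of the clathrin adaptor dab2 rose without overlap, dab2 by 0.44 (adjusted p = 0.029) and dab2_1 by 0.43 (adjusted p = 0.0252). The FCHSD2-like endocytosis gene LOC106613235, described above, went the other way, with a log2 fold change of -0.88. Endocytosis genes were not counted as a list.

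Genes of 3 lysosomal proteases were higher as well. Legumain, lgmn, had 151, 113, 132 and 141 CPM in FM and from 158 to 200.2 CPM (median 178) in soybean fish, a log2 fold change of 0.41 (SE 0.07, adjusted p = 0.0135) with no overlap. Cathepsin K, catk, had 0.45 (adjusted p = 0.0302) and cathepsin A, ctsa, had 0.26 (adjusted p = 0.0302). The endothelial transcription factor gene erg had 43.6, 39.0, 41.7 and 44.9 CPM in FM against 46.8 to 59.2 CPM (median 53.6) in soybean fish and a log2 fold change of 0.34 (SE 0.06, adjusted p = 0.022), and angiopoietin-2-like LOC106612545 had 0.32 (adjusted p = 0.0312). The receptor gene LOC106613588, named sphingosine 1-phosphate receptor 1 and known from mammals for the exit of lymphocytes into blood and for vessel stability, had 6.05, 2.28, 2.63 and 2.99 CPM in FM and from 5.28 to 10.95 CPM (median 7.19) in soybean fish, with a log2 fold change of 1.09 (SE 0.21, adjusted p = 0.0243). FM replicate 1 was the only FM fish within the soybean range.

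Adhesion and guidance genes were counted by symbol in 4 lists. Among 15 tested semaphorins, plexins and neuropilins, 12 cadherins, 26 genes of collagens and basement membrane and 13 integrins, 0 were called, with 8, 3, 7 and 1 of them at an unadjusted p under 0.05 and median log2 fold changes of 0.01, 0.23, 0.19 and -0.0013. Over all tested genes 0.992% were called, so 0 calls in lists of this size say little, and 16.5% had an unadjusted p under 0.05. Of the 8 semaphorin, plexin and neuropilin genes past it 5 were higher and 3 lower, and of the 3 cadherins 2 were higher and 1 lower. The 7 collagen genes were all higher and the 1 integrin was lower. Among the collagen genes 22 of 26 had a positive fold change, and the one with the most counts, LOC106589632 (col1a1b), had 0.30 (adjusted p = 0.194). The most counts in the other 3 lists belonged to nrp2 with 0.31 (adjusted p = 0.248), pcdh18 with 0.23 (adjusted p = 0.272) and itga4 with -0.16 (adjusted p = 0.342). Some members of these families that carry only a number as symbol were called, and the following were chosen after their values were seen. Unnamed members were not counted as a set, so these genes do not give a direction for the families. Plexin-C1-like LOC106609289, a semaphorin receptor, had 101, 87.4, 94.2 and 76.9 CPM in FM and from 103 to 133 CPM (median 119) in soybean fish, with a log2 fold change of 0.42 (SE 0.07, adjusted p = 0.0202). Plexin-D1-like LOC106566625 had 0.41 (adjusted p = 0.0243), semaphorin-6D-like LOC106569916 0.39 (adjusted p = 0.0345) and neuropilin-2-like LOC106574325 0.31 (adjusted p = 0.0432). Of the 16 fits that left out 1 fish, 13 kept the call of LOC106566625, 7 that of LOC106569916 and 5 that of LOC106574325. B-cadherin-like LOC106587272, for an adhesion molecule between cells, had 360.1, 308, 339 and 348 CPM against 364 to 600.0 CPM (median 456), a log2 fold change of 0.45 (SE 0.09, adjusted p = 0.029).

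Immune signalling genes were counted by symbol, and their lists held 0 or 1 call each. Since 0.992% of all tested genes were called, such counts do not set these lists apart. Of 58 tested cytokines, chemokines and their receptors, 1 rose and 0 fell (median 0.08), where 0.588% of all tested genes were called higher. At an unadjusted p under 0.05, 6 of the 58 were higher and 3 lower, against 7.93% and 8.56% of all tested genes. The gene that rose was cxcl12, whose product retains blood cell progenitors and B cells in tissue. It had 95.2, 91.2, 96.8 and 88.6 CPM in FM and from 99.3 to 145 CPM (median 114) in soybean fish, a log2 fold change of 0.36 (SE 0.08, adjusted p = 0.0458). Of the 16 fits that left out 1 fish, 6 kept the call of cxcl12. The receptor gene csf3r, with the most counts in the list, had 0.21 (adjusted p = 0.286). No gene was called among 20 of the interferon response, 22 of toll-like receptors and their signalling, 11 of complement and the acute phase and 13 of MHC class I and antigen processing. Their median log2 fold changes were -0.16, 0.02, 0.15 and 0.05. Over the alternatives run, the median of the interferon list ran from -0.27 to 0.16. At an unadjusted p under 0.05 these 4 lists had 0, 5, 4 and 0 genes, where the whole table had 16.5%. The genes with the most counts in the last 3 lists were nfkb2 at -0.01 (adjusted p = 0.966), the complement factor D gene LOC101448046 at 0.15 (adjusted p = 0.473) and b2m_1, for the light chain of MHC class I, at 0.28 (adjusted p = 0.517).

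Named immune genes among the lower ones were chosen after their values were seen. CCL4-like chemokine LOC100136511 had 60.5, 56.8, 54.4 and 53.7 CPM in FM and from 25.5 to 60.3 CPM (median 37.3) in soybean fish, with ICJ replicate 3 alone at the FM level, and a log2 fold change of -0.59 (SE 0.13, adjusted p = 0.0357). The kinase gene jak2, which carries signals of cytokine receptors, had -0.41 (adjusted p = 0.0497). Interleukin-31 receptor subunit alpha-like LOC106567650 had -0.65 (adjusted p = 0.0466), and klf2_1, a transcription factor that keeps T cells quiescent in mammals, had -0.46 (adjusted p = 0.0278). Of the 16 fits that left out 1 fish, 4 kept the call of jak2, 4 that of LOC106567650 and 13 that of klf2_1. Ig kappa chain C region-like LOC106574567 had 19.4, 21.99, 18.8 and 19.4 CPM in FM and from 9.58 to 18.5 CPM (median 14.1) in soybean fish, with no overlap and a log2 fold change of -0.54 (SE 0.10, adjusted p = 0.0243). By diet its fold changes were -0.48 in SBM, -0.29 in ICJ and -0.86 in ACJ, and the joint test among the soybean diets gave it an unadjusted p of 0.00133. Immunoglobulin genes have near copies, and fragments with several matches were not counted, so this level is uncertain.

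The lists of energy and lipid genes held 0 or 1 call each, and 0.588% of all tested genes were called higher. In lists of this size such counts do not set the genes apart from all tested genes. In the list of creatine kinases and creatine supply 1 of 9 genes rose, kcrt, and the median log2 fold change was -0.57, of the opposite sign to kcrt. That median was -0.93 in SBM, -0.69 in ICJ and 0.25 in ACJ, so its sign was not common to the diets, and over the alternatives it ran from -0.86 to -0.003. The B-type-like gene LOC106607642 is outside the list because it has no symbol. The brain-type gene kcrb, with the most counts, had 0.14 (adjusted p = 0.601). In glycolysis 1 of 17 genes rose, aldoa, for an aldolase, from 219, 199.8, 188 and 213 CPM in FM to 224 to 280.1 CPM (median 241) in soybean fish, a log2 fold change of 0.26 (SE 0.06, adjusted p = 0.0355) without overlap. Its call was kept in 6 of the 16 fits that left out 1 fish. At an unadjusted p under 0.05, 4 of the 17 glycolysis genes were higher and 0 lower, against 7.93% and 8.56% of all tested genes. Sterol biosynthesis had 12 tested genes, 0 called, 4 at an unadjusted p under 0.05 and a median of 0.24, and its regulator gene srebf2 had -0.05 (adjusted p = 0.935). No gene was called among 9 of fatty acid synthesis and desaturation, 18 of fatty acid oxidation, 28 antioxidant enzymes and 55 of oxidative phosphorylation. At an unadjusted p under 0.05 these lists had 1, 2, 2 and 3 genes, against 16.5% of all tested genes. The genes with the most counts in them were elov1 with 0.08, acadvl with 0.02, prdx1 with -0.44 and atp5a1 with 0.12, none of them past the threshold. The hormone-sensitive lipase gene lipe, chosen after its values were seen, had 9.07, 2.43, 4.91 and 4.82 CPM in FM and from 7.95 to 13.7 CPM (median 10.6) in soybean fish, a log2 fold change of 1.02 (SE 0.23, adjusted p = 0.0462), and 2 of the 16 fits that left out 1 fish kept the call.

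In the cell cycle list 2 of 44 genes rose and 0 fell, where 0.588% of all tested genes were called higher. Fold changes were above 0 in 38 of 44, with a median of 0.19. At an unadjusted p under 0.05, 16 of the 44 were higher and 0 lower, against 7.93% higher over all tested genes. The 2 called genes were cdc20, an activator of the complex that ends mitosis, at 0.45 (adjusted p = 0.0345), and kif23, a kinesin of cell division, at 0.48 (adjusted p = 0.0485). Of the 16 fits that left out 1 fish, 7 kept the call of cdc20 and 3 that of kif23. For cdc20 the levels were 16.01, 21.3, 17.9 and 19.3 CPM in FM and 20.7 to 28.6 CPM (median 26.3) in soybean fish. The gene with the most counts, top2a, had 0.28 (adjusted p = 0.0897). Among 51 chaperone and folding genes and 78 cytosolic ribosomal protein genes 0 were called, with hspa8 at 0.02 and rl4a at -0.00036. In these lists 7 and 2 genes had an unadjusted p under 0.05, against 16.5% of all tested genes.

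Red cell genes had lower mean levels in soybean fish, and none passed the test. The summed level of 5 hemoglobin genes was 9575, 9942, 14804 and 19732 CPM in the FM fish, and ran from 3723 to 17019.6 CPM in soybean fish. It was between 4271 and 7489 CPM in SBM, whereas both ends of the soybean range were ICJ fish, so the groups overlapped. All 5 hemoglobin genes had a negative fold change (median -0.65), 2 had an unadjusted p under 0.05 and 0 were called. The median was -0.95 in SBM, -0.41 in ICJ and -0.57 in ACJ. Over the alternatives it ran from -0.95 to -0.45, apart from -0.016 in the fit that held this level itself as the covariate. The beta globin gene LOC100136576 had -0.65 (adjusted p = 0.295). Of 9 genes of the red cell membrane 0 were called and 7 had an unadjusted p under 0.05, with a median of -0.73 and the ammonium transporter gene rhbg_1 at -0.98 (adjusted p = 0.161). Of 18 genes of heme synthesis and iron 0 were called as well and 13 had an unadjusted p under 0.05, with a median of -0.54 and the ferritin gene LOC100136564 at -0.31 (adjusted p = 0.244). The genes past the unadjusted threshold in these red cell lists were all lower, as were 8.56% of all tested genes. Hemoglobin genes have near-identical copies, and their levels are uncertain for the same reason as above. The count of called genes moved with this level: with the log2 summed hemoglobin level as a covariate, a fit added after the data were seen, 5 genes were called in place of 287. All 287 kept their direction and an unadjusted p under 0.05 in that fit, and the median size of their log2 fold changes was 0.41 against 0.46.

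All 11 tested B cell and immunoglobulin genes had a negative fold change, with a median of -0.33, and 0 were called. At an unadjusted p under 0.05, 8 of the 11 were lower, against 8.56% of all tested genes. The summed level of the 11 genes ran from 803 to 1088 CPM in FM and from 588 to 882 CPM (median 726) in the soybean fish. The gene with the most counts, cd37, a B cell membrane protein, had -0.52 (adjusted p = 0.166). The 20 T and NK cell markers had a median of -0.01, and 0 were called, with the perforin gene LOC106600810 at 0.16 (adjusted p = 0.867). Of 3 thrombocyte markers 0 were called and 2 were lower at an unadjusted p under 0.05. Their median, -0.51, was that of the integrin gene LOC106600877 (adjusted p = 0.171). Of 9 granulocyte markers 0 were called, with the lysozyme gene LOC100136365 at 0.46 (adjusted p = 0.691) and ACJ replicate 4 far above the other fish. At the unadjusted threshold the T and NK cell list had 1 higher and 2 lower genes, and the granulocyte list 1 higher and 0 lower. Over all tested genes 7.93% were higher and 8.56% lower at that threshold. Since 0.992% of all tested genes were called, 0 calls in lists of this size say little. The part of these cell types in the fold changes of single genes was not tested.

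Pancreas transcripts were present at very unequal levels. The 9 tested genes of the pancreas, a gland scattered in the fat around the gut and near the spleen in salmonids, summed to 27429, 3642, 6202 and 12649 CPM in FM fish and to between 6.23 and 25809 CPM in soybean fish. None was called or had an unadjusted p under 0.05, and cbpb1, a carboxypeptidase gene, had -0.77 (adjusted p = 0.813). The median log2 fold change of these 9 genes was -0.66, and over the alternatives it ran from -2.23 to 0.04. With the log2 summed pancreas level as a covariate, another fit added after the data were seen, 911 genes were called, 388 higher and 523 lower in soybean fish, and all 287 were among them. Markers of liver summed to between 0.211 and 22.8 CPM over all fish, and the one with the most counts, LOC106560588 (ahsg1), had -0.58 (adjusted p = 0.811). The median of the 3 tested liver genes was 2.14, 2 were above 0, and 1 of these had an unadjusted p under 0.05. Over the alternatives that median ran from 0.20 to 2.47, with the FM mean of 2 of the 3 genes near the floor. Of 23 skeletal muscle genes 5 passed the filter and 0 were called, where 0.992% of all tested genes were called. Their median log2 fold change was -0.38, with 4 of the 5 below 0. An unadjusted p under 0.05 was reached by 2 lower genes and 1 higher gene, against 8.56% and 7.93% of all tested genes. The gene with the most counts, tpm1, also a gene of smooth muscle and other cells, had -0.02 (adjusted p = 0.901).

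**Figure D4:**
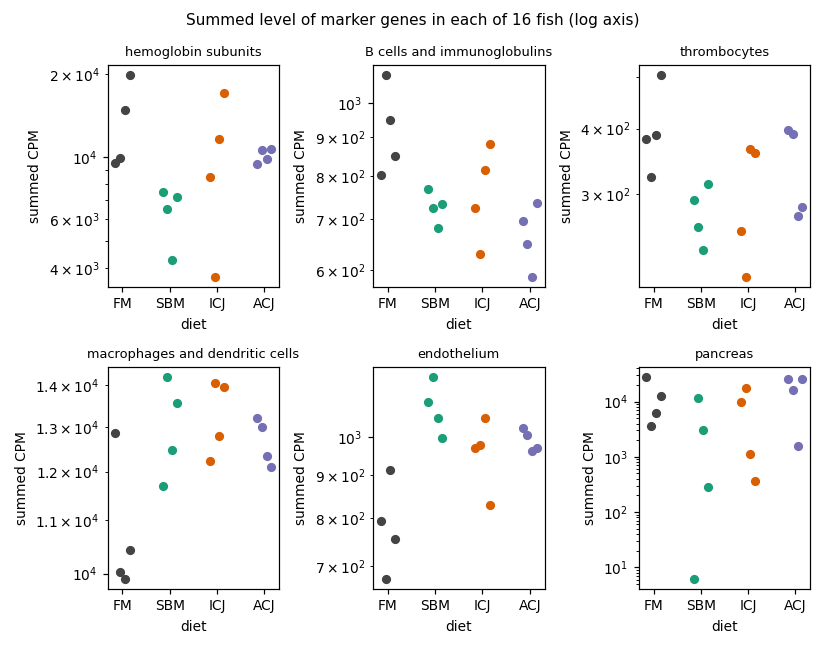
Summed level in CPM (log axis) of the marker genes of 6 cell types or tissues in each fish by diet. Points are fish. Hemoglobin runs from 3723 to 19732 CPM over the 16 fish with the soybean and FM fish overlapping, and pancreas genes run from 6.23 to 27429 CPM with the diets overlapping.

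A gene was counted as common to the soybean diets when it was called with the diets at equal weight and each of SBM, ICJ and ACJ differed from FM in the same direction at an unadjusted p under 0.05. By this rule 277 genes (0.957% of those tested) were common, 164 higher and 113 lower in soybean fish. The 3 comparisons share the 4 FM fish and the joint call already uses all 3 diets, so this count is not independent support. A stricter rule, which adjusts the largest of the 3 p-values of each gene over all genes, called 0 genes, with 997 genes at a largest unadjusted p under 0.05 in one direction and a smallest adjusted value of 0.115. Alone against FM, SBM called 125 genes (0.432%), ICJ 3 (0.0104%) and ACJ 68 (0.235%). Of the 287 genes, 157 were called in none of these. The median log2 fold change of the 170 higher genes was 0.46 in SBM, 0.38 in ICJ and 0.43 in ACJ, and that of the 117 lower genes was -0.55, -0.45 and -0.60.

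All 287 called genes had the same direction in the 3 diets, and 10 were not common. In 7 of these ICJ missed the unadjusted threshold, in 2 ACJ did and in 1 SBM did. Over all tested genes the unadjusted threshold was passed by 14.7% in SBM, 9.26% in ICJ and 14.9% in ACJ. The 7 include adam10, a membrane protease, with log2 fold changes of -0.38 in SBM, -0.12 in ICJ and -0.34 in ACJ, and the complement component C1q receptor-like gene LOC106608581 with 0.61 in SBM, 0.21 in ICJ and 0.36 in ACJ. Those missed by ACJ were sik2, a kinase, with -0.86 in SBM, -0.34 in ICJ and -0.30 in ACJ, and oit3, a gene expressed in liver and sinusoidal endothelium of mammals, with 0.66 in SBM, 0.60 in ICJ and 0.21 in ACJ. The one missed by SBM was SOX-5-like LOC106576150 with 0.26 in SBM, 0.71 in ICJ and 0.59 in ACJ. These were named after their values were seen. Whether the diets differ in them is addressed only by the next test, which called none of them and cannot show that the diets act alike.

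A joint test of differences among SBM, ICJ and ACJ called 0 genes with edgeR's quasi-likelihood test. Its contrast leaves out FM, but the FM fish still add to the estimate of the spread. At an unadjusted p under 0.05 there were 1677 genes (5.80%), and the smallest adjusted p was 0.635. DESeq2 and edgeR's likelihood ratio test called 16 genes each. Of the 287 genes, 43 had an unadjusted p under 0.05. This does not show that the diets act alike on these genes: over the 287 genes, the 95% interval of the log2 difference reached a median of 0.24 to either side for each pair of soybean diets, and from 0.11 to 1.04 for ICJ against SBM. The 3 genes with the smallest p were 2 genes named zinc finger and BTB domain-containing protein 16-A, a transcription factor family, and LOC106585371, which has no name. LOC106603639 had 17.4 ± 0.581 CPM (SD, n = 4 fish) in SBM, 26.8 ± 4.14 CPM in ICJ and 17.8 ± 1.27 CPM in ACJ, with FM at 20.2 ± 2.75 CPM. LOC106567727 had 8.68 ± 1.497 CPM, 23.1 ± 9.16 CPM and 17.8 ± 2.02 CPM in the same order, and LOC106585371 1.14 ± 0.385 CPM, 6.06 ± 4.28 CPM and 3.85 ± 1.398 CPM. None of the 3 was called between the soybean diets together and FM, with log2 fold changes of -0.00087, 0.09 and -0.19.

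The number of calls depended on single fish, and above all on the 4 FM fish. Without FM replicate 1 it was 1005, of which 276 were among the 287. Without FM replicate 2 it was 18, without FM replicate 3 it was 8 and without FM replicate 4 it was 8. FM replicate 1 was the FM fish nearest to the soybean fish in 169 of the 287 genes, and in 2268 of the 4770 genes at an unadjusted p under 0.05. Leaving out a soybean fish gave between 87 and 376 calls, and 79 of the 287 genes were called in all 12 of these fits. All 287 genes kept their direction in each of the 16 fits. They were chosen for their calls in the same fish, so this is not independent support. In the contrast itself, 58 genes were called with ICJ and ACJ alone at equal weight, 343 with SBM and ACJ and 62 with SBM and ICJ.

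**Figure D5:**
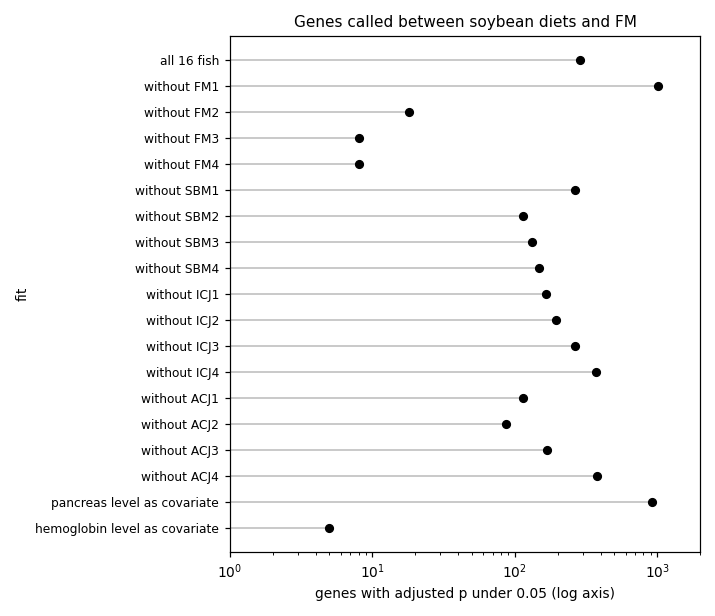
Number of genes called between the soybean diets and FM (log axis) with all 16 fish, without each fish in turn and with the summed level of pancreas or hemoglobin genes as a covariate. Lines start at 1 gene. With all fish 287 genes are called, and the number runs from 8 without FM replicate 3 or 4 to 1005 without FM replicate 1, and is 5 with the hemoglobin covariate.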

How the data were processed

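Spleen RNA of 16 fish was sequenced as stranded, paired-end mRNA libraries, and each fish had 1 table of read counts per gene. Per the labels and the file headers, the authors aligned reads to the Atlantic salmon genome ICSASG_v2 with HISAT2 2.1.0 and counted fragments over 79141 features with featureCounts, strand-specifically and in pairs. The labels name version 1.4.6-p1 of featureCounts and the headers name another. The deposited counts are raw and not normalized, and fragments with several matches were not counted.

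Counts were tested with edgeR 4.0.16 in R 4.3.3 (filterByExpr by diet, TMM scaling, robust quasi-likelihood F test), with 1 mean per diet over all 16 fish and the contrast of the 3 soybean diets at equal weight against FM. Benjamini-Hochberg adjustment ran over the 28930 genes that passed the filter. Standard errors are the log2 fold change divided by the square root of F. The script was tested on simulated counts. Alternatives were DESeq2 1.42.0, edgeR's likelihood ratio test, RLE scaling, other filters, a replicate block, and left-out fish or diets. The log2 of the summed CPM of hemoglobin or pancreas genes as a covariate was a further alternative, added after the data were seen.

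Named genes were the 12 highest and 12 lowest fold changes among called, common genes without overlap and at a mean log2 CPM of 1 or more, up to 3 called genes and the gene with the most counts in each of 33 lists, the 3 smallest p-values among soybean diets, 30 genes chosen after their values were seen, and 8 more of that kind from the called genes, for which no alternatives are given. Members and lists were chosen with earlier results of these data known. Lists were matched by RefSeq symbol, which 13215 of the features other than transfer RNAs have, so unnamed family members are outside them. Names of LOC genes come from the study's lists of genes that differed between diets in these same fish. Such a name was held by 1082 of the 79141 features and by 226 of the 287 called genes. Relatives that did not differ there have no name from this source. The LOC genes grouped by function above are therefore not an even sample of their families. Coordinates are those of the files, and chromosome numbers were assigned from RefSeq genes shared by symbol, at least 86.4% of which fell on 1 chromosome for each sequence. Columns of the study's own comparisons were not used. One gene that the rule names is not reported here.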

Additional observations from a re-analysis of the deposited data

Results flagged for a closer look

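Within each diet, the highest or lowest of the 4 fish was compared with the other 3 for the 100 named genes, by Dixon's ratio of its gap to the nearest fish over the whole range. Of 400 such groups, 34 passed Dixon's 95% critical value for 4 fish, and chance flags about 1 group in 20. A ratio over 4 fish can be large where the other 3 lie close together.

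Among the FM fish, this applied to LOC106563704 with a ratio of 0.834 (replicate 1 at 41.8 CPM, above 33.8 to 35.1 CPM) and LOC106566251 with a ratio of 0.909 (replicate 3 at 299 CPM, above 197 to 205 CPM). The ratio also passed for LOC106576023 with a ratio of 0.978 (replicate 3 at 14.7 CPM, above 10.6 to 10.7 CPM) and LOC106579933 with a ratio of 0.854 (replicate 1 at 33.1 CPM, below 50.7 to 54.5 CPM). In the same diet it passed for catk with a ratio of 0.869 (replicate 1 at 137 CPM, above 107 to 110.3 CPM) and itga4 with a ratio of 0.859 (replicate 4 at 398 CPM, below 456 to 467 CPM). Further such genes were pcdh18 with a ratio of 0.862 (replicate 1 at 50.5 CPM, below 53.5 to 54.0 CPM).

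Among the SBM fish, this applied to LOC106569123 with a ratio of 0.938 (replicate 1 at 8.07 CPM, above 5.12 to 5.27 CPM) and LOC106580346 with a ratio of 0.832 (replicate 2 at 44.7 CPM, below 65.0 to 70.1 CPM). The ratio also passed for LOC106611552 with a ratio of 0.929 (replicate 4 at 17.5 CPM, below 27.6 to 28.6 CPM) and LOC106613235 with a ratio of 0.9 (replicate 1 at 19.97 CPM, above 13.8 to 14.3 CPM). In the same diet it passed for LOC106613588 with a ratio of 0.835 (replicate 3 at 10.95 CPM, above 7.92 to 8.36 CPM) and elov1 with a ratio of 0.965 (replicate 1 at 74.8 CPM, below 77.8 to 77.9 CPM). Further such genes were hspa8 with a ratio of 0.872 (replicate 3 at 3326 CPM, below 3564 to 3600.4 CPM) and itga4 with a ratio of 0.936 (replicate 1 at 490.3 CPM, above 386 to 392 CPM). It passed as well for kcrt with a ratio of 0.867 (replicate 1 at 81.3 CPM, below 96.5 to 99.0 CPM) and sesn1 with a ratio of 0.915 (replicate 1 at 248 CPM, below 288 to 292 CPM). Among the SBM fish, this applied to tek with a ratio of 0.939 (replicate 2 at 167 CPM, above 143 to 144 CPM) and xlkd1 with a ratio of 0.858 (replicate 2 at 138 CPM, above 107 to 111 CPM).

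Among the ICJ fish, this applied to LOC106563704 with a ratio of 0.862 (replicate 3 at 50.9 CPM, below 57.2 to 58.3 CPM) and b3galt2 with a ratio of 0.861 (replicate 2 at 53.3 CPM, below 74.8 to 79.0 CPM). The ratio also passed for cxcl12 with a ratio of 0.844 (replicate 2 at 144 CPM, above 107 to 112 CPM) and sesn1 with a ratio of 0.883 (replicate 3 at 243 CPM, below 269 to 272 CPM). In the same diet it passed for shmt2 with a ratio of 0.847 (replicate 1 at 57.4 CPM, below 73.7 to 77.1 CPM) and tek with a ratio of 0.832 (replicate 4 at 131 CPM, below 146 to 149.6 CPM).

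Among the ACJ fish, this applied to LOC100136365 with a ratio of 0.883 (replicate 4 at 1203 CPM, above 199.8 to 246 CPM) and LOC106574325 with a ratio of 0.846 (replicate 4 at 75.8 CPM, below 96.4 to 101 CPM). The ratio also passed for LOC106578605 with a ratio of 0.92 (replicate 2 at 11.8 CPM, above 7.64 to 7.91 CPM) and LOC106586211 with a ratio of 0.836 (replicate 3 at 21.5 CPM, below 27.1 to 28.3 CPM). In the same diet it passed for LOC106607157 with a ratio of 0.955 (replicate 4 at 16.6 CPM, above 10.7 to 10.9 CPM) and b2m_1 with a ratio of 0.906 (replicate 3 at 301 CPM, above 176 to 185 CPM). Further such genes were catk with a ratio of 0.884 (replicate 4 at 122 CPM, below 169.8 to 177 CPM) and cdc20 with a ratio of 0.854 (replicate 1 at 20.7 CPM, below 26.1 to 27.2 CPM). It passed as well for jak2 with a ratio of 0.85 (replicate 2 at 32.0 CPM, below 39.7 to 41.3 CPM).

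Of the 5 genes called in every fit that left out 1 fish, kcrt and LOC106563704 are among these, and in each case the fish set apart stayed on its own side of the other group. The lysozyme gene LOC100136365, for a bactericidal enzyme of granulocytes and macrophages, stood at 1203 CPM in ACJ replicate 4.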

How the results depend on the processing

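All 287 called genes kept their directions in the 16 fits that left out 1 fish and with the hemoglobin covariate. They were chosen for their calls in the same fish, so this was largely set beforehand and is not independent support. Of the 100 named genes, 0 were classed as reversed in any alternative run. For genes near 0, such as rl4a at -0.00036, the sign itself carries little meaning. The number of calls did not hold. Against 287 called and 277 common genes, DESeq2 gave 869 and 669, with 444 of the 869 higher in soybean fish, and edgeR's likelihood ratio test gave 698 and 548, with 310 of the 698 higher. The pancreas covariate gave 911 and 795, and the hemoglobin covariate gave 5 and 5. Without 1 fish, calls ranged from 8 to 1005 and common genes from 8 to 943, with 1005 without FM replicate 1 and 8 without FM replicate 3 or 4. The contrast without SBM called 58 genes and that without ACJ 62. Counting only called genes without overlap as common gave 118, and adjusting the largest of the 3 p-values gave 0. The difference among soybean diets had 0 calls, but 16 with DESeq2, 16 with the likelihood ratio test and 3 with the pancreas covariate, and 0 in every fit that left out 1 fish. RLE scaling, both other filters, removal of hemoglobin genes and a fit of 2 groups gave between 239 and 293 calls. The cause of these differences was not tested.

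The labels give the diets the same replicate numbers. Deviations from the diet means correlated at a mean of -0.0133 (-0.233 to 0.314) over 24 pairs of fish with the same number, against 0.00441 for other pairs, and 3 of 16 fish were closest to their own number, so the numbers were not taken as pairs. Library names in the file headers carry other numbers than the labels for most fish, and replicate numbers here are those of the labels. The fit with a replicate block called 259 genes, 205 of them among the 287, and 250 common genes, with 0 between soybean diets.

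With 4 FM fish, each of which decides the count, and totals of 5032593 to 9100203, a gene near 3 counts has little precision. Among list medians, 942 of 956 alternative values moved by less than the spread between fish and 14 by more.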

Other observations

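Most called genes are in none of the lists, and the 4 described here were chosen after their values were seen. The B-cell lymphoma/leukemia 11A-like gene LOC106593355, related to a factor of lymphoid and erythroid development in mammals, had 12.8, 22.3, 19.5 and 13.8 CPM in FM and from 7.76 to 13.9 CPM (median 10.9) in soybean fish, a log2 fold change of -0.66 (SE 0.15, adjusted p = 0.0407) with edgeR. The adseverin-like gene LOC106570315, for a protein that severs actin filaments, had 64.2, 112, 93.1 and 71.6 CPM in FM and from 40.7 to 71.0 CPM (median 53.7) in soybean fish, a log2 fold change of -0.68 (SE 0.14, adjusted p = 0.0324). The hydrolase gene nudt12, which acts on NAD-type nucleotides, had -0.90 (adjusted p = 0.0328). The galactosyltransferase gene b3galt2 had 83.6, 122.52, 115 and 102 CPM in FM and from 53.3 to 79.0 CPM (median 71.0) in soybean fish, a log2 fold change of -0.61 (SE 0.09, adjusted p = 0.0108).

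In the called genes, ICJ had the smallest of the 3 diets' fold changes in size in 168 of 287 genes, SBM in 63 and ACJ in 56. The 3 diets share the FM fish, and no test of this split was run. In all 5 lower amino acid genes plotted above, ICJ replicate 3 was among the soybean fish that reached the level of the lowest FM fish, and it also did so for the chemokine gene LOC100136511.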
